A study of Rattus norvegicus with 60 samples.

Results

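The response of the rat hippocampus to lithium chloride (LiCl) given in the chow was measured on 10 arrays, 5 of LiCl rats and 5 of chow vehicle rats, chosen by their titles out of the 60 arrays of the series. The other arrays covered cortex and striatum of the same treatments and, in all 3 regions, rats injected with lamotrigine or with its vehicle. Per the labels the rats were of the strain SD and were treated for 21 days. LiCl rats ate chow with 0.2% LiCl, while chow vehicle rats ate chow without it. In the injection arm, lamotrigine (30 mg/kg) and its vehicle were given subcutaneously once a day. No allele, transgene or other agent is given for any group, and neither age nor sex is stated in the sources. One label names the tissue as mouse, whereas the organism and the array are rat, and rat was used. Regions were microdissected and snap-frozen, so each array averages over the cell types of the tissue, and a smaller number of cells of a type cannot be told apart from less RNA per cell.

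Lithium is the oldest of the mood stabilizers. Its best known direct targets are glycogen synthase kinase 3, which marks beta-catenin of the Wnt pathway for degradation, and the phosphatases that recycle inositol for phosphoinositide signalling. The hippocampus, with its granule and pyramidal neurons, is a region in which activity-dependent genes and synaptic plasticity have been widely studied, and both depend in part on cyclic AMP and its kinase.

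Levels are log2 intensities of a probe set, which is a group of array probes for 1 transcript. They do not rank genes by abundance. A change is the LiCl mean minus the chow vehicle mean on the log2 scale, given with the standard error (SE) of the limma fit, and calls were made at a Benjamini-Hochberg adjusted p below 0.05 over the 31042 probe sets of the table that are not array controls. The files used here hold no detection calls, so whether a dim probe set lay above background is unknown. Hippocampal neuron genes were at high levels in both groups. The transcription factor genes Zbtb20 and Prox1, the second a marker of granule cells, averaged 11.01 and 9.58 in LiCl rats, and a mean over 23 hippocampal neuron genes lay between 9.16 and 9.28 in LiCl rats and between 9.10 and 9.29 in chow vehicle rats. A few arrays stood apart in genes of the choroid plexus, the tissue beside the hippocampus that makes cerebrospinal fluid. Their mean level over 17 genes was 5.52, 7.24, 5.41, 6.32 and 5.45 in LiCl arrays 1 to 5, against 5.66, 5.54, 5.53, 5.48 and 6.54 in chow vehicle arrays 1 to 5. LiCl arrays 2 and 4 and chow vehicle array 5 were thus high, and the results were also computed without them.

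LiCl was followed by small changes in a small set of genes. Of the 31042 probe sets, 73 were called (0.235%), of which 42 were higher (0.135%) and 31 lower (0.0999%) in LiCl rats. These stand for 62 named genes, 35 higher and 27 lower, and 9 probe sets with no single gene name. The largest changes among the called probe sets were a fall to about 1.93-fold lower for Pkib and a rise to 1.85-fold higher for Baiap2. Of the 73 called probe sets 66 changed at least 1.2-fold. The calls were made on these same arrays, so agreement among the arrays is in large part built into the calls. In all 73, 5 of 5 LiCl arrays lay beyond the chow vehicle mean. The LiCl and chow vehicle arrays did not overlap in 40 of the 42 called rises and 28 of the 31 called falls, against 3.87% of all probe sets (2.2% higher, 1.67% lower). The exceptions with a gene name were Akap13, Rbm10, Rpia and Kcne3. Without any call, 4827 probe sets (15.5%) had an unadjusted p under 0.05 in limma. The number called depended on single arrays: it was 5 without LiCl array 5, 14 without LiCl array 1, 28 without LiCl array 3 and 43 without LiCl array 2. It was 8 without chow vehicle array 2, 21 without chow vehicle array 1, 35 without chow vehicle array 3 and 256 without chow vehicle array 5. Without the LiCl array 2 and chow vehicle array 5 that were high in choroid plexus genes, 66 were called, and without LiCl array 4 as well, 122.

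The arrays of the groups also differed in spread, that is in the distance from the 25th to the 75th percentile of an array's log2 values. The spread was 3.60, 3.58, 3.61, 3.56 and 3.63 in LiCl arrays 1 to 5 and 3.45, 3.43, 3.44, 3.51 and 3.56 in chow vehicle arrays 1 to 5. It was wider in the LiCl group by 0.118 (exact permutation test over 252 splits, two-sided p = 0.0159, with a smallest possible p of 0.00794). The injection vehicle arrays, at 3.55 to 3.64, and the lamotrigine arrays, at 3.51 to 3.59, also lay above 3 of the 5 chow vehicle arrays. A wider spread goes with lower values of dim probe sets and higher values of bright ones. Probe sets with a mean level under 6 had a median change of -0.06, those from 6 to 8 had 0.03, those from 8 to 10 had 0.05 and those of 10 or more had 0.02. Called falls were mostly dim, with 22 of 31 under a level of 6 and a median of 5.21, and called rises were brighter, with 3 of 42 under 6 and a median of 8.14. With the array spread as a covariate 0 probe sets were called by limma, although 2092 had an unadjusted p under 0.05. All 42 rises and all 31 falls kept their direction in that fit, with median changes of 0.32 and -0.32 in place of 0.38 and -0.38, and 35 of the rises and 28 of the falls had an unadjusted p under 0.05. These probe sets were chosen on the same arrays, so kept directions and low unadjusted p-values are in large part built in.

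**Figure D1:**
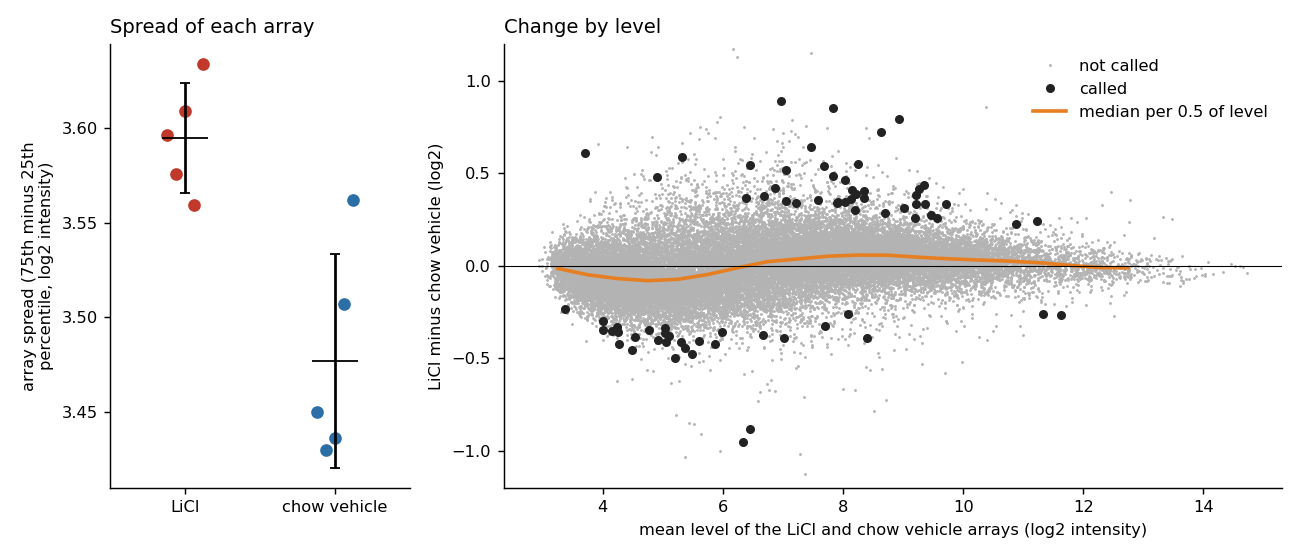
Left, the spread of each array (75th minus 25th percentile of log2 intensity) for the 5 LiCl and 5 chow vehicle arrays of the hippocampus, with mean and SD; the axis does not start at 0. Right, the change of each probe set (LiCl minus chow vehicle, log2) against its mean level, with the 73 called probe sets in black and the median change per 0.5 of level as a line that lies below 0 at dim levels and above it at middle and high ones. A total of 6 probe sets with changes beyond 1.2 are outside the plotted range.

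The largest change among the called probe sets was a fall of Pkib, which encodes an inhibitor of the cyclic AMP-dependent protein kinase. Its level was 5.73, 5.78, 6.06, 6.12 and 5.57 in LiCl arrays 1 to 5, against 7.15, 6.76, 6.72, 6.60 and 6.80 in chow vehicle arrays 1 to 5. Every LiCl array lay below every chow vehicle array, with a gap of 0.47 between the groups. The change was -0.95 (SE 0.12, adjusted p = 0.00513 in limma). A second probe set of the gene read 5.66, 5.91, 6.10, 6.42 and 6.0 in the LiCl arrays and 7.06, 6.78, 6.97, 6.65 and 7.03 in the chow vehicle arrays, again with no overlap, and changed by -0.88 (SE 0.13, adjusted p = 0.00767). Of the 24 called genes with the largest changes, Pkib was the only gene that kept its call with each of the 10 arrays left out in turn. The others kept theirs in 1 to 8 of the 10. None of the 24, Pkib included, kept its call with array spread as a covariate. The same held without all hippocampus arrays whose choroid plexus mean was 6 or more. The injection vehicle and lamotrigine means of Pkib, 6.22 and 6.08, lay between the LiCl mean of 5.86 and the chow vehicle mean of 6.81. Injection vehicle minus chow vehicle was -0.58 and passed as well (adjusted p = 0.00233), as did 7.6% of all probe sets in that direction, in rats that were given no LiCl.

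The wider cyclic AMP system held few calls. With each gene taken by its brightest probe set, of 39 measured genes of that list (cyclases, phosphodiesterases, kinase subunits and anchors) 0 were called higher and 1 lower, with 16 above and 23 below 0 and a median change of -0.03, against a median of 0.01 and calls of 0.162% higher and 0.148% lower over 14217 genes with 1 probe set each. The calcium-stimulated adenylyl cyclase Adcy8 changed by -0.73 (SE 0.19) and did not pass (adjusted p = 0.0842). Its LiCl arrays read 6.58, 5.71, 6.21, 6.67 and 5.94 and its chow vehicle arrays 7.11, 7.23, 6.72, 7.06 and 6.65, so that the groups overlapped narrowly. Akap13, an anchor of the cyclic AMP-dependent kinase, rose by 0.54 (SE 0.11, adjusted p = 0.0379). It was at 7.56, 8.08, 8.05, 7.90 and 8.19 in LiCl rats and 7.34, 7.29, 7.66, 7.46 and 7.32 in chow vehicle rats, with LiCl array 1 below chow vehicle array 3. Its brighter probe set, the one that stands for it in the list, changed by 0.33 and did not pass (adjusted p = 0.223).

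Among the rises were genes of synapses and dendritic spines. Baiap2 encodes a scaffold of the actin skeleton in spines. Its level was 7.39, 7.27, 7.49, 7.38 and 7.54 in LiCl arrays and 6.59, 6.49, 6.12, 6.56 and 6.85 in chow vehicle arrays, a change of 0.89 (SE 0.17, adjusted p = 0.0276). The groups were 0.42 apart, and the chow vehicle arrays were the more scattered. A pair of brighter probe sets of Baiap2 were also a little higher, by 0.14 and 0.15 with SEs of 0.05 and 0.06, and neither passed (adjusted p = 0.186 and 0.230). Arc, an immediate early gene whose protein removes glutamate receptors from synapses, was at 9.08, 9.09, 9.25, 9.59 and 9.60 in LiCl rats and at 8.59, 8.55, 8.61, 8.46 and 8.43 in chow vehicle rats. Every LiCl array lay above every chow vehicle array, and the change was 0.79 (SE 0.15, adjusted p = 0.0297). The lamotrigine mean of Arc was 8.98, between the LiCl mean of 9.32 and the injection vehicle mean of 8.47.

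Itsn2, an endocytic scaffold, was the other gene with a pair of called probe sets. The brighter of the pair was at 7.87, 7.60, 7.54, 7.95 and 8.01 in LiCl arrays, against 6.94, 7.19, 7.13, 7.26 and 7.24 in chow vehicle arrays, a change of 0.64 (SE 0.11, adjusted p = 0.0184). The dimmer one changed by 0.59 (SE 0.10), and a further pair of probe sets of the gene by 0.20 and 0.25 without passing. All 4 were thus higher, by unlike amounts. Amigo2, a neuronal adhesion molecule, was at 8.54, 8.46, 8.57, 8.42 and 8.65 in LiCl rats and 7.74, 7.65, 8.20, 8.15 and 8.16 in chow vehicle rats, a change of 0.55 (SE 0.09, adjusted p = 0.0184). The groups did not overlap, although chow vehicle arrays 1 and 2 lay well below the other three. The list of spine scaffold and actin genes as a whole had 1 of 34 measured genes called higher and 0 lower, against 0.162% and 0.148% of all genes. Baiap2 was not that called gene, since a gene stands in lists for its brightest probe set, which for Baiap2 did not pass. In the list 23 genes were above 0, with a median change of 0.04. Camk2a, the main kinase of the postsynaptic density, had the largest change of that list, 0.86, but with an SE of 0.29 it did not pass (adjusted p = 0.170). Its levels ran from 10.01 to 11.27 in LiCl arrays and from 9.03 to 11.04 in chow vehicle arrays.

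Arc was the only immediate early gene called, where 0.162% of all genes were called higher. Of 27 measured genes of that list 12 were higher and 15 lower, with a median change of -0.03. The early response gene Ier2, the ERK phosphatase Dusp5 and the matrix protein gene Ccn1 had changes of 0.52 (SE 0.16), 0.43 (SE 0.12) and 0.35 (SE 0.10), with adjusted p of 0.138, 0.123 and 0.113. Fos, the best known of these genes, ranged from 8.52 to 9.06 in LiCl arrays and from 7.87 to 9.23 in chow vehicle arrays, so that the LiCl arrays lay within the chow vehicle range.

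Secreted regulators of the TGF-beta superfamily were also among the rises. Inhba, which encodes the subunit of activin A and is induced by neuronal activity, was at 7.16, 7.29, 7.30, 7.39 and 7.43 in LiCl rats, against 6.91, 6.58, 6.95, 6.91 and 6.64 in chow vehicle rats. It rose by 0.52 (SE 0.09, adjusted p = 0.0140) with no overlap. A dimmer Inhba probe set changed by -0.12 (SE 0.09). Grem1, a secreted antagonist of bone morphogenetic proteins, was at 6.49, 6.69, 6.93, 6.74 and 6.79 in LiCl arrays and 5.98, 6.19, 6.34, 6.31 and 6.10 in chow vehicle arrays. It rose by 0.54 (SE 0.11, adjusted p = 0.0450), near the threshold, and the groups were 0.15 apart. Inhba and Grem1 were the 2 of 30 measured activin and bone morphogenetic protein genes that were called, where 0.162% of all genes were called higher. This list was chosen with earlier results of these data known. Another antagonist, Chrd, changed by 0.42 (SE 0.13) and Bmp4 by 0.68 (SE 0.29), and neither passed (adjusted p = 0.145 and 0.264). The list as a whole had 13 genes above and 17 below 0, with a median of -0.02.

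The remaining 5 of the 12 largest rises had other roles. Steap4, a metalloreductase of iron and copper, was at 3.87, 4.01, 3.89, 4.02 and 4.21 in LiCl rats and at 3.16, 3.28, 3.38, 3.71 and 3.42 in chow vehicle rats, levels at the dim end of the array. Eif4e3, a relative of the cap-binding protein of translation, was at 8.02, 8.17, 7.97, 8.01 and 8.24 against 7.61, 7.45, 7.66, 7.51 and 7.75 in chow vehicle rats. Gpr83, a G protein-coupled receptor, was at 8.18, 8.20, 8.35, 8.17 and 8.41 in LiCl rats and at 7.60, 7.68, 8.0, 7.73 and 7.98 in chow vehicle rats. None of the 3 genes had overlapping groups, and their changes were 0.61 (SE 0.12), 0.48 (SE 0.08) and 0.46 (SE 0.08), with adjusted p of 0.0350, 0.0140 and 0.0218. Gjb6, the gap junction protein connexin 30 of astrocytes, was at 9.60, 9.49, 9.32, 9.68 and 9.70 in LiCl arrays and at 9.11, 9.11, 9.10, 9.16 and 9.14 in chow vehicle arrays. It rose by 0.44 (SE 0.09, adjusted p = 0.0429), and the LiCl arrays were the more scattered. Beside it, the mean level of 17 astrocyte genes was 10.88 to 11.02 in LiCl arrays and 10.81 to 10.94 in chow vehicle arrays, with 1 gene called and a median change of 0.07. The part of astrocyte content in the rise of Gjb6 was not tested.

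Gas5, a noncoding RNA whose introns hold small nucleolar RNAs, was at 9.59, 9.48, 9.43, 9.36 and 9.52 in LiCl rats and at 9.04, 9.0, 9.14, 9.09 and 9.04 in chow vehicle rats. It rose by 0.42 (SE 0.08, adjusted p = 0.0379) with a gap of 0.22 between the groups. A brighter Gas5 probe set changed by 0.11 (SE 0.07, adjusted p = 0.422). Among the called genes with a promoter given, Gas5 was also the only one with the cyclic AMP response element TGACGTCA (a palindrome, the same on both strands) in its promoter, here the 250 bases before and 50 after the start of the gene in RefSeq (GRCr8). The element stood in 1 of 31 promoters of genes called higher (3.23%), 0 of 21 promoters of genes called lower and 525 of all 27457 promoters (1.91%). It overlapped none of the ER stress elements given further on. The stretch from 160 bases before to 10 bases after the Gas5 start (chr13:75836803-75836972, plus strand) is shown with the element in capitals, 57 to 50 bases before the start.
Gas5: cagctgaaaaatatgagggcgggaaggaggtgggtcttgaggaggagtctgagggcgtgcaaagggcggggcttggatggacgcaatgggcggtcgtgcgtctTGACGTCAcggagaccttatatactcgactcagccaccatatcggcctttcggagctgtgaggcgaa

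**Figure D2:**
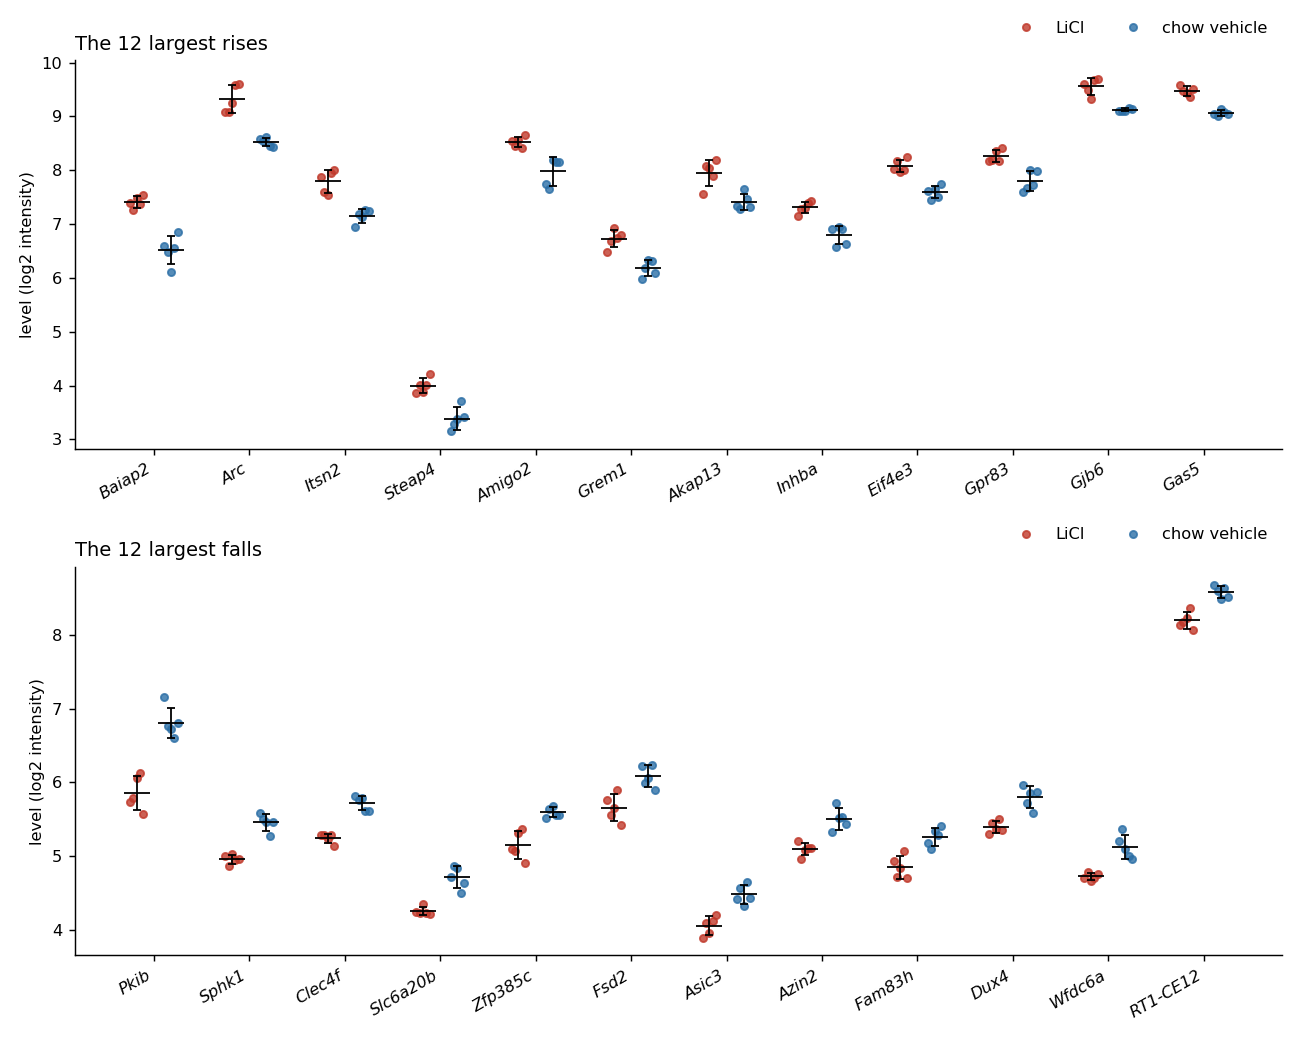
Level (log2 intensity) of the 12 called genes with the largest rises and the 12 called genes with the largest falls in each of the 5 LiCl arrays (red, left) and 5 chow vehicle arrays (blue, right) of the hippocampus, with mean and SD. The groups do not overlap in 23 of the 24 genes, and Akap13 is the exception. Most falls lie at levels under 6.

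Besides Pkib, a lower level was called for a number of mostly dim probe sets. Sphk1, which makes the lipid mediator sphingosine 1-phosphate, was at 5.0, 4.86, 5.02, 4.94 and 4.96 in LiCl rats and 5.58, 5.50, 5.46, 5.27 and 5.46 in chow vehicle rats. It fell, with a change of -0.50 (SE 0.09, adjusted p = 0.0184). Its paralogue Sphk2 rose by 0.35 (SE 0.07, adjusted p = 0.0379), with 8.02, 8.06, 8.14, 8.05 and 8.15 in LiCl rats against 7.74, 7.49, 7.74, 7.77 and 7.94 in chow vehicle rats. Neither kinase had overlapping groups, and a dimmer Sphk2 probe set changed by 0.07 (SE 0.08). These were the only 2 called of 20 measured sphingosine 1-phosphate genes, where 0.162% of all genes were called higher and 0.148% lower. Of the 20 genes 9 were above 0 and 11 below, with a median of -0.05.

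Asic3, an acid-sensing sodium channel best known from sensory neurons, was at 3.89, 4.09, 3.95, 4.12 and 4.20 in LiCl rats and 4.42, 4.56, 4.32, 4.65 and 4.43 in chow vehicle rats, a change of -0.42 (SE 0.09, adjusted p = 0.0429). Of the 8 measured channels of its family 2 were above 0 and 6 below, with a median of -0.17, and the epithelial sodium channel subunit Scnn1a changed by -0.30 (SE 0.07, adjusted p = 0.0808). The list had a median level of 5.18, in the dim range where the median of all probe sets was also below 0. With array spread as a covariate the list median was -0.16 and that of all probe sets under a level of 6 was -0.01. The part of array spread in the lower values of this list was not tested. The list was chosen with earlier results of these data known. Slc6a20b, a transporter of imino acids, was at 4.24, 4.22, 4.34, 4.22 and 4.21 in LiCl arrays and 4.71, 4.86, 4.84, 4.50 and 4.63 in chow vehicle arrays. It fell, with a change of -0.46 (SE 0.08, adjusted p = 0.0140). In its family 11 of 15 genes were below 0 and 1 was called, where 0.148% of all genes were called lower. Clec4f, a lectin of liver macrophages, was at 5.28, 5.28, 5.23, 5.28 and 5.14 in LiCl rats, against 5.81, 5.76, 5.79, 5.61 and 5.61 in chow vehicle rats, a change of -0.48 (SE 0.08, adjusted p = 0.0140). For all 3 called genes the groups did not overlap.

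RT1-CE12, a major histocompatibility class I gene of the rat, was the brightest of the 12 largest falls. It was at 8.14, 8.18, 8.23, 8.37 and 8.07 in LiCl arrays and 8.68, 8.59, 8.49, 8.64 and 8.52 in chow vehicle arrays, a change of -0.39 (SE 0.06, adjusted p = 0.0140), with no overlap. Class I genes are close copies of each other, so the probe set may also bind RNA of related genes. Azin2, which keeps ornithine decarboxylase active by binding antizyme, was at 5.20, 4.96, 5.08, 5.11 and 5.11 in LiCl rats and 5.32, 5.72, 5.52, 5.53 and 5.43 in chow vehicle rats, a change of -0.41 (SE 0.08, adjusted p = 0.0379). The groups did not overlap, but a brighter Azin2 probe set changed by only -0.13 (SE 0.08), and of 16 polyamine genes, each taken by its brightest probe set, 0 were called by limma and 4 had an unadjusted p under 0.05. Of those, 3 were lower and 1 higher, where 7.56% and 8.69% of all genes were so at that p.

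The other 5 of the largest falls were Zfp385c, Fsd2, Fam83h, Dux4 and Wfdc6a. Zfp385c, a zinc finger gene, was at 5.10, 5.06, 5.31, 5.37 and 4.91 in LiCl rats and 5.52, 5.64, 5.68, 5.56 and 5.55 in chow vehicle rats. Fsd2, a protein with fibronectin and SPRY domains, was at 5.76, 5.55, 5.65, 5.90 and 5.42 against 6.22, 5.99, 6.06, 6.24 and 5.90 in chow vehicle rats. These sets of values did not overlap, although LiCl array 4 and chow vehicle array 5 of Fsd2 both read 5.90, only 0.001 apart. Fam83h, known for its part in tooth enamel, was at 4.93, 4.71, 4.83, 5.07 and 4.70 in LiCl rats and 5.18, 5.10, 5.34, 5.28 and 5.40 in chow vehicle rats. Dux4, a double homeobox gene, was at 5.30, 5.44, 5.37, 5.50 and 5.35 in LiCl rats, against 5.96, 5.72, 5.85, 5.58 and 5.87 in chow vehicle rats. The groups of Fam83h and Dux4 were separate by 0.03 and 0.08. Wfdc6a, a gene of the WAP family of protease inhibitors, was at 4.70, 4.78, 4.66, 4.70 and 4.76 in LiCl arrays and 5.20, 5.36, 5.09, 5.0 and 4.96 in chow vehicle arrays. The changes of the 5 genes ran from -0.44 for Zfp385c to -0.40 for Wfdc6a.

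A further 23 named genes were called higher, with changes between 0.23 and 0.41. Factors that act on RNA or chromatin were the poly(A) polymerase Papola (0.41), the histone readers Phf14 (0.38) and Mphosph8 (0.32), the splicing factors Prpf38b (0.37), Snrnp48 (0.35), Srsf11 (0.34) and Rbm10 (0.28), the transcription factors Trps1 (0.36) and Klf3 (0.34), the elongation factor Aff4 (0.34), the transcription coactivator Ccar1 (0.26) and the translation initiation factor Eif1b (0.23). Papola was at 8.28, 8.44, 8.36, 8.31 and 8.40 in LiCl rats and at 8.02, 7.88, 7.90, 8.11 and 7.84 in chow vehicle rats, and the adjusted p was 0.00767. The brightest probe sets of Papola, Srsf11, Aff4, Mphosph8 and Prpf38b were not the called ones. They changed by 0.04, -0.004, 0.01, 0.02 and 0.04. The brightest of Klf3 and Trps1, also not the called ones, changed by 0.30 and 0.16. None of these brightest probe sets passed. No enrichment of such genes was tested. Genes of the endoplasmic reticulum and of calcium handling were P4ha2, a subunit of the enzyme that hydroxylates collagen (0.37), Creld2 (0.39), the calcium pump Atp2a2 (0.26) and the calcium-binding protein Sri (0.24). P4ha2 had the smallest adjusted p of all rises, 0.00681. It was at 8.58, 8.56, 8.42, 8.46 and 8.59 in LiCl arrays and 8.17, 8.15, 8.14, 8.11 and 8.22 in chow vehicle arrays, with tight groups that did not overlap. The others were Gpr12 (0.40), Apba3 (0.38), Lysmd3 (0.35), Sphk2 (0.35), the dystrophin partner Dtna (0.34), Rimkla (0.33), which makes the neuropeptide N-acetylaspartylglutamate, and Tor1aip2 (0.30).

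A further 15 named genes were called lower, with changes between -0.39 and -0.23. The bright ones were Gap43, a protein of growing axons, and Csnk1e, a kinase of the circadian clock and of Wnt signalling. Gap43 was at 11.47, 11.68, 11.43, 11.53 and 11.40 in LiCl rats and 11.80, 11.78, 11.70, 11.80 and 11.73 in chow vehicle rats, a change of -0.26 (SE 0.05, adjusted p = 0.0429). Csnk1e was at 7.96, 7.92, 7.93, 8.05 and 7.90 in LiCl rats, against 8.26, 8.24, 8.10, 8.20 and 8.26 in chow vehicle rats, a change of -0.26 (SE 0.05, adjusted p = 0.0379). Both had separate groups, and a dim second probe set of Gap43 and a pair of Csnk1e did not pass. The kinase Mast3 (-0.39), the interferon-induced gene Oasl (-0.38), Ly6l (-0.38), Rnf207 (-0.37), N5 (-0.36), the potassium channel subunit Kcne3 (-0.36), Hdgfl1 (-0.36), the connexin Gja6 (-0.33), the pentose phosphate enzyme Rpia (-0.33) and Pdlim5 (-0.30) made up most of the rest. Cpb1, Krtdap and Pth, known from pancreas, skin and parathyroid gland, changed by -0.35, -0.35 and -0.23 at mean levels of 4.15, 4.01 and 3.37. Brighter probe sets of Mast3 changed by 0.16 and -0.03, and a brighter Rpia probe set by 0.10. Other Pdlim5 probe sets changed by 0.10, 0.13 and -0.22. Those of Ly6l, Rnf207, Kcne3 and Krtdap were all lower. None of these other probe sets passed.

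Where a called gene had other probe sets, these were compared. The 24 genes called higher with further probe sets had 47 of them, of which 36 were higher too and 18 of these had an unadjusted p under 0.05, with a median change of 0.12. The histone reader Phf14 was the clearest case, since its 4 other probe sets changed by 0.23 to 0.30. A dim probe set of the calcium pump Atp2a2 was the 1 set of the 47 that was lower with an unadjusted p under 0.05, at -0.24. A pair of Atp2a2 probe sets brighter than the called one changed by 0.10 and -0.05, and neither passed. For the 12 genes called lower, 14 of 20 further probe sets were lower and 1 of them, of Pdlim5, had an unadjusted p under 0.05, with a median change of -0.07. Among all probe sets 15.5% had an unadjusted p under 0.05. Pkib and Itsn2 were the 2 genes with more than 1 called probe set.

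**Figure D3:**
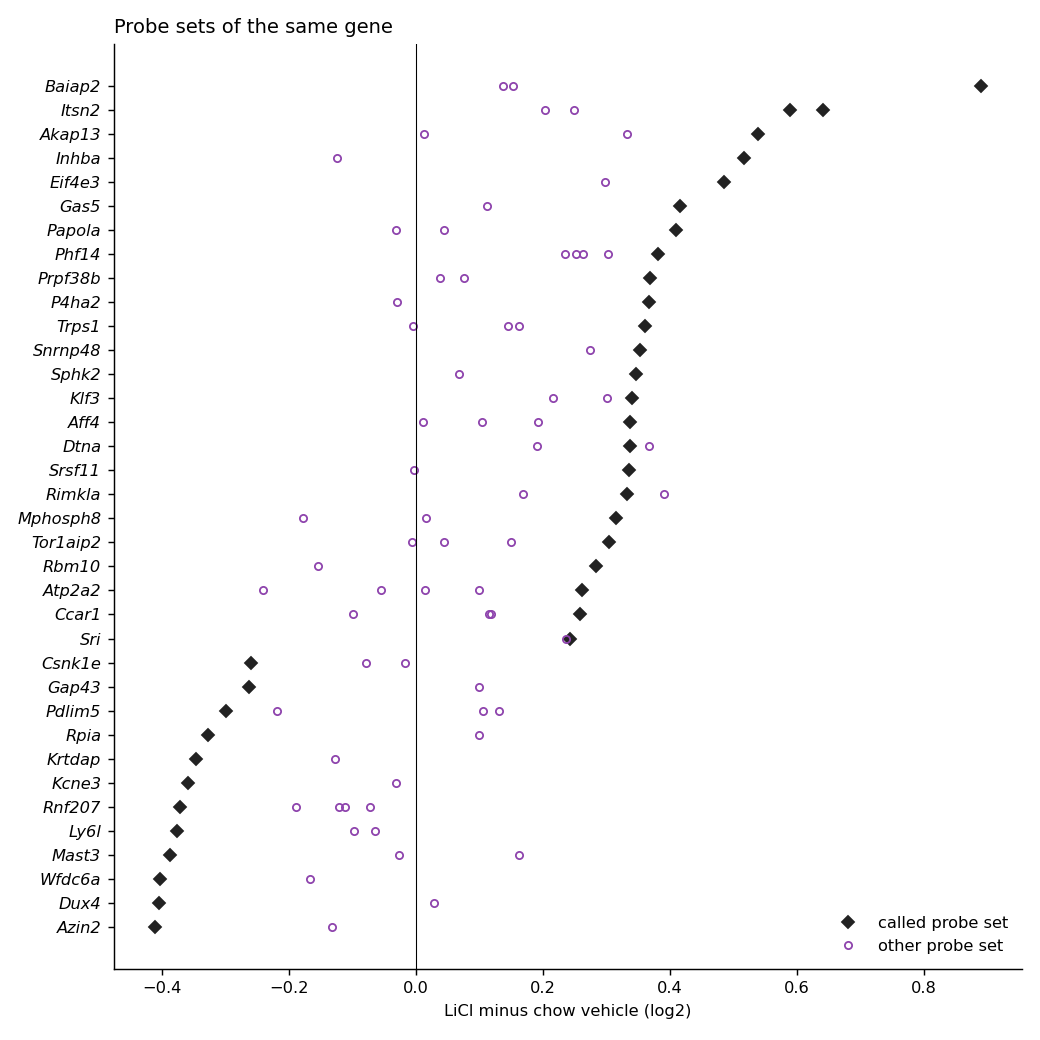
Change (LiCl minus chow vehicle, log2) of the called probe set (black diamonds) and of other probe sets (open circles) for the called genes with at least 1 other probe set that was not called. Most circles lie nearer to 0 than the diamond of their gene, Phf14 and Klf3 have all their circles well above 0, and Dtna and Rimkla each have 1 circle beyond the diamond.

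Genes of the endoplasmic reticulum (ER) chaperone list were mostly higher in LiCl rats, and 1 of them was called (0.162% of all genes were called higher). Such chaperones fold secreted proteins and are induced by the unfolded protein response through the transcription factors ATF6 and XBP1. Of 30 measured genes 24 were above 0, 9 of these with an unadjusted p under 0.05 (8.69% of all genes were higher at that p), and the median change was 0.10. With array spread as a covariate the median was 0.03. Among genes with a level of 8 or more in general, 69.1% were above 0, with a median of 0.04. Creld2, a secreted ER protein, rose by 0.39 (SE 0.08, adjusted p = 0.0350). It was at 8.28, 8.42, 8.35, 8.45 and 8.55 in LiCl rats and 8.11, 7.92, 8.04, 8.10 and 7.94 in chow vehicle rats. Manf, a neurotrophic factor held in the ER, lay just outside the threshold, at 0.33 (SE 0.07, adjusted p = 0.0501), with 9.86, 10.03, 9.97, 10.06 and 10.14 in LiCl arrays and 9.78, 9.55, 9.61, 9.81 and 9.64 in chow vehicle arrays. Neither gene had overlapping groups.

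The master chaperone Hspa5, also known as BiP, was at 11.72, 11.97, 12.02, 11.89 and 12.04 in LiCl rats and 11.81, 11.48, 11.63, 11.71 and 11.69 in chow vehicle rats, a change of 0.26 (SE 0.07) that did not pass (adjusted p = 0.0904). LiCl array 1 lay below chow vehicle array 1. The co-chaperones Dnajc3 and Dnajb11 changed by 0.27 (SE 0.09) and 0.18 (SE 0.05), with adjusted p of 0.166 and 0.139. Dnajc3 was at 7.55, 7.63, 7.49, 7.51 and 7.64 in LiCl rats, against 7.43, 7.18, 7.29, 7.31 and 7.26 in chow vehicle rats, without overlap. The cytosolic heat shock list had all 15 measured genes above 0, with a median change of 0.11, 3 at an unadjusted p under 0.05 and 0 called by limma, and with array spread as a covariate its median was 0.01. Over all genes 16.2% had an unadjusted p under 0.05. The co-chaperone Bag3 and the stress-induced Hspa1a had the largest changes, 0.36 (SE 0.12) and 0.35 (SE 0.11), with adjusted p of 0.156 and 0.160.

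The promoters of the ER chaperone list were searched on both strands for the ER stress elements ERSE, which is CCAAT and CCACG with any 9 bases between them, and ERSE-II, which is ATTGG and CCACG with any 1 base between them. The elements overlapped each other in 0 promoters. A promoter was given for 23 of the 30 genes. ERSE stood in 7 of them (30.4%) and in 21 of all 27457 promoters (0.0765%), and ERSE-II in 3 (13%) and in 15 of all (0.0546%). These shares describe the genes of the list and are no result of the arrays. The 10 ER genes with an element were all above 0, with a median change of 0.13, and the 13 without were above 0 in 8, with a median of 0.02. Among all genes with a level of 8 or more, 69.1% were above 0. The part of the elements in these changes was not tested. Among the called genes with a promoter given, Creld2 was the only one with either element. The 4 members with the smallest p for which a promoter was given are shown from 160 bases before to 10 bases after the start, with the fixed letters of the element in capitals. They are Creld2 on chr7:121789224-121789393 (plus strand, element on the opposite strand 145 to 127 bases before the start), Hspa5 on chr3:38452856-38453025 (plus strand, 43 to 25 bases before), Dnajb11 on chr11:91672791-91672960 (minus strand, ERSE-II from 10 bases before up to the start) and Dnajc3 on chr15:102432507-102432676 (plus strand, 133 to 115 bases before), all in GRCr8 from RefSeq.
Creld2: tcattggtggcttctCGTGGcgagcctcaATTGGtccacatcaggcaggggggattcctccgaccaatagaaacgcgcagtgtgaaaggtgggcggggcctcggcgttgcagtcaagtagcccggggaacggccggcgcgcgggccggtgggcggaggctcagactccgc
Hspa5: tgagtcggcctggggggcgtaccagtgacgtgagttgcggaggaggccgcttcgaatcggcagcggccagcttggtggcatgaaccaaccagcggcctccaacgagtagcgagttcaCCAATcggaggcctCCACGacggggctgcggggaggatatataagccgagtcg
Dnajb11: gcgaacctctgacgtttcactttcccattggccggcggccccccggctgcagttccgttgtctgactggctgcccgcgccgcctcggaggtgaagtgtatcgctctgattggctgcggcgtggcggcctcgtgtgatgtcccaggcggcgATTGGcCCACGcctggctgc
Dnajc3: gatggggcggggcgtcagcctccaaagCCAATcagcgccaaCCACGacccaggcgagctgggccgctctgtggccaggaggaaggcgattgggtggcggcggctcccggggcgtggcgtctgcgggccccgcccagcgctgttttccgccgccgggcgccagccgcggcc

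**Figure D4:**
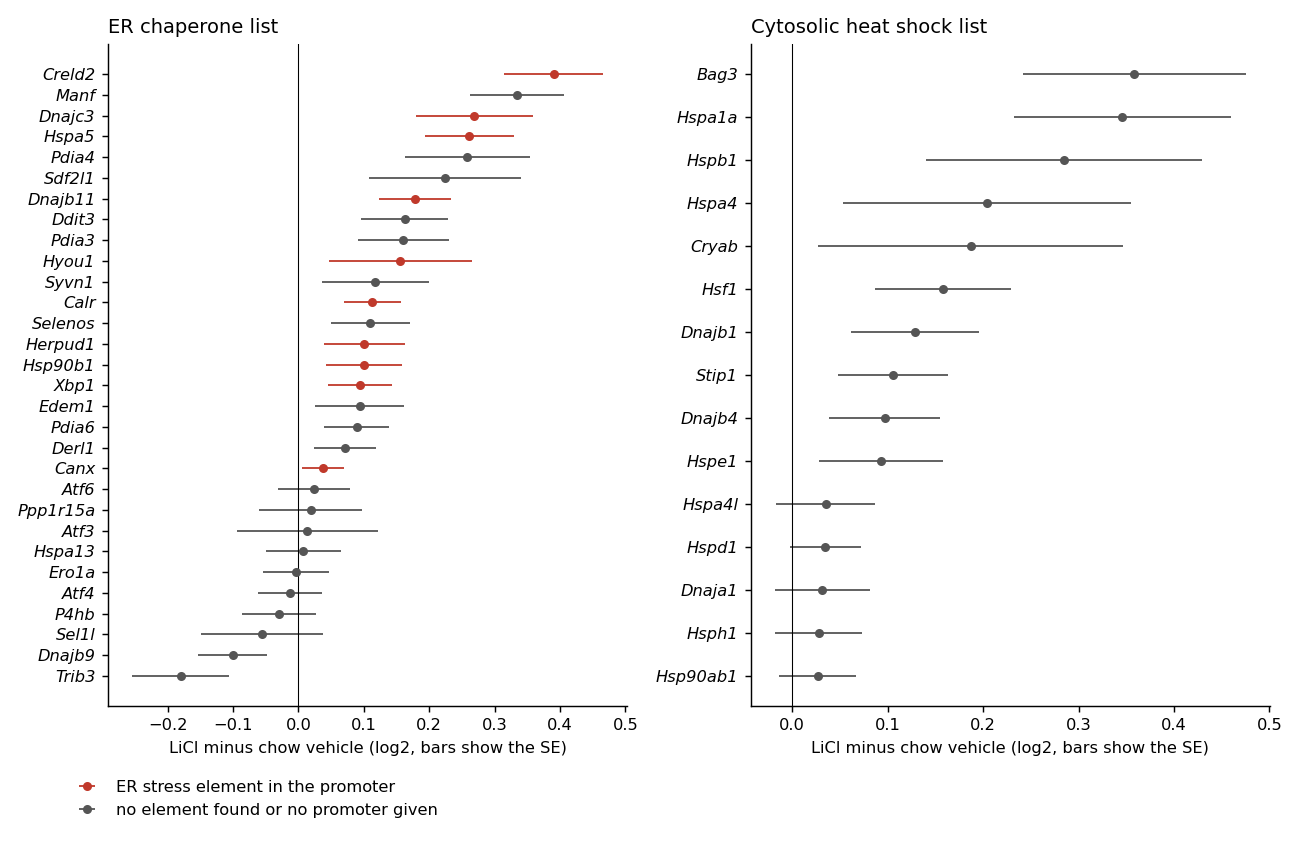
Change (LiCl minus chow vehicle, log2, with SE) of each measured gene of the ER chaperone list and of the cytosolic heat shock list in the hippocampus. Red marks ER genes with an ER stress element in the promoter. Of the 30 ER genes 24 lie above 0, including all 10 in red, and all 15 heat shock genes lie above 0.

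The targets for which lithium is best known gave few calls. Of 30 measured Wnt and GSK3 components 0 were called higher and 1 lower (Csnk1e), against 0.162% and 0.148% of all genes, with 14 above and 16 below 0. Gsk3b itself changed by 0.17 (SE 0.07, adjusted p = 0.220), with 8.38, 8.28, 8.32, 8.28 and 8.39 in LiCl rats and 8.17, 8.28, 8.11, 8.04 and 8.19 in chow vehicle rats. The Wnt antagonist Frzb changed by 0.75 (SE 0.20, adjusted p = 0.0913), with a range of 8.43 to 9.18 in LiCl arrays and 7.41 to 8.50 in chow vehicle arrays. Among 17 Wnt target genes 0 were called by limma and 3 had an unadjusted p under 0.05, and Axin2, a feedback inhibitor of the pathway, changed by 0.44 (SE 0.13, adjusted p = 0.136). None of 30 inositol and phosphoinositide genes was called by limma, and 2 had an unadjusted p under 0.05, Cds2 (-0.37, SE 0.13) and Cdipt (0.10, SE 0.04). Beside the counts of both lists, 16.2% of all genes had an unadjusted p under 0.05.

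Receptor lists likewise held no called gene. Of 23 glutamate receptor genes 16 were above 0 and 7 had an unadjusted p under 0.05, 6 of them higher, where 8.69% of all genes were higher and 7.56% lower at that p. The AMPA receptor subunit Gria4 was the nearest to a call, at -0.33 (SE 0.08, adjusted p = 0.0645). It was at 9.10, 9.31, 9.21, 9.33 and 9.25 in LiCl rats and 9.68, 9.67, 9.54, 9.33 and 9.64 in chow vehicle rats, with no overlap but LiCl array 4 and chow vehicle array 4 almost level. The NMDA receptor subunit Grin2a changed by 0.31 (SE 0.14, adjusted p = 0.297). Of 12 GABA receptor genes and 14 serotonin receptor genes 0 were called, with 2 in each at an unadjusted p under 0.05 in limma. Of 20 clock genes Csnk1e alone was called, where 0.148% of all genes were called lower. Of 19 glucocorticoid response genes none was called, 5 being higher and 1 lower at an unadjusted p under 0.05 (8.69% and 7.56% of all genes), with Fkbp5 at 0.32 (SE 0.11, adjusted p = 0.169).

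Of the cell type lists, the astrocyte list held the 1 called gene, Gjb6, where 0.162% of all genes were called higher. The thalamus and habenula list, tissue that lies beside the hippocampus, had 13 of 18 genes below 0, 5 lower and 1 higher at an unadjusted p under 0.05 (7.56% and 8.69% of all genes), and a median change of -0.14, and its mean level was 6.30 to 6.42 in LiCl arrays and 6.41 to 6.52 in chow vehicle arrays. The medium spiny neuron list, whose cells belong to the striatum, had 8 of 14 genes below 0, 5 lower and 0 higher at an unadjusted p under 0.05 in limma, and a median of -0.08. Oligodendrocyte genes were below 0 in 14 of 16, with a median of -0.11, none at an unadjusted p under 0.05, and array means of 9.76 to 10.32 in LiCl rats and 10.05 to 10.36 in chow vehicle rats. The part of these cell types in the called changes was not tested.

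The injection arm gave a second set of hippocampus arrays without LiCl. Its vehicle was set against the same chow vehicle arrays as LiCl, so the values are given side by side. Injection vehicle against chow vehicle was called for 5747 probe sets (18.5%), of which 2359 were lower (7.6%). For Clec4f the injection vehicle mean was 5.24, the LiCl mean 5.24 and the chow vehicle mean 5.72, and injection vehicle minus chow vehicle was -0.48 (adjusted p = 0.00016). For RT1-CE12 the injection vehicle mean was 8.40, with a LiCl mean of 8.20 and a chow vehicle mean of 8.59, and injection vehicle minus chow vehicle was -0.18 (adjusted p = 0.0444). Both were thus also lower than chow vehicle in rats not given LiCl. Of the 31 called falls, 30 had an injection vehicle mean between the LiCl and chow vehicle means, and 1 had it beyond the LiCl mean. Of the 42 called rises, 19 had it between those means, 5 beyond the LiCl mean and 18 on the far side of the chow vehicle mean. The called probe sets were chosen by their difference from these same chow vehicle arrays. An injection vehicle mean on the LiCl side of the chow vehicle mean follows in part from that choice. No share over all probe sets stands beside these counts. For Papola it was 8.42, with a LiCl mean of 8.36, and injection vehicle minus chow vehicle was 0.47 (adjusted p = 9.71e-06 in limma). For Gas5 the injection vehicle mean was 8.90, below the LiCl mean of 9.48 and the chow vehicle mean of 9.06, and for Baiap2 it was 6.57, with a LiCl mean of 7.41 and a chow vehicle mean of 6.52. Neither of these differences of injection vehicle from chow vehicle passed (adjusted p = 0.188 and 0.877). The LiCl effect was also tested against the effect of lamotrigine over its own vehicle, with which it shares no arrays. The difference was called by limma for 0 of 31042 probe sets, with a smallest adjusted p of 0.0678, although 4468 had an unadjusted p under 0.05, and without chow vehicle array 5 it was called for 167. Without LiCl array 1, LiCl array 2 or injection vehicle array 3 it was called for 1, 2 and 2. Lamotrigine minus injection vehicle was -0.15 (SE 0.12) for Pkib, 0.51 (SE 0.15) for Arc and 0.00 (SE 0.17) for Baiap2.

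The LiCl effect in the hippocampus differed from that in the cortex in many probe sets and from that in the striatum in few. The difference of effects was called for 6034 probe sets against the cortex (19.4%) and for 4 against the striatum (0.0129%). Among the called rises it was called in 30 of 42 against the cortex and 0 against the striatum, and among the called falls in 29 of 31 and in 1. These probe sets were chosen by their hippocampus effect, which is also part of each difference. A high share among them follows in part from that choice. In the cortex 24 of the 42 rises had the opposite sign, with a median change of -0.02, and 25 of the 31 falls had the opposite sign, with a median of 0.30, of which 14 were called higher there (5.22% of all probe sets were called higher in the cortex). In the striatum 37 of the rises and 27 of the falls had the same sign as in the hippocampus, with medians of 0.17 and -0.14, and none was called there by limma, where 0 probe sets were called in all and 3828 had an unadjusted p under 0.05. The arrays of the cortex also differed in spread, but the other way, from 3.29 to 3.44 with LiCl and 3.56 to 3.61 with chow vehicle. In the striatum the spread was 3.44 to 3.64 with LiCl and 3.40 to 3.53 with chow vehicle, the same way round as in the hippocampus but with overlap. Over all probe sets with a hippocampus level under 6 the median change was 0.09 in the cortex and -0.05 in the striatum. For those from 8 to 10 it was -0.11 and 0.01. No share of signs over all probe sets stands beside the counts above. The part of array spread and of level in the shared and opposite signs was not tested. With array spread as a covariate the difference from the cortex was called for 0 probe sets by limma, with 2307 at an unadjusted p under 0.05, and that from the striatum for 4. With single arrays left out, the difference from the striatum was called for 1 probe set without hippocampus LiCl array 3 or striatum chow vehicle array 3, for 2 without hippocampus LiCl array 2 or chow vehicle array 1 or striatum LiCl array 3 or chow vehicle array 2, for 7 without hippocampus LiCl array 4, striatum LiCl array 2 or striatum chow vehicle array 1, and for 8 without hippocampus chow vehicle array 4 or 5.

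RT1-CE12 showed the contrast between regions most clearly. LiCl minus chow vehicle was -0.39 (SE 0.06) in the hippocampus, 0.61 (SE 0.09) in the cortex and -0.17 (SE 0.10) in the striatum, and the effects in hippocampus and cortex differed by -1.01 (adjusted p = 2.67e-07). For Clec4f the changes were -0.48, 0.56 and -0.23 in the same order, and for Sphk1 they were -0.50, 0.42 and -0.15. Among the rises, Itsn2 was 0.64 in the hippocampus, -0.21 in the cortex and 0.02 in the striatum, with a difference of 0.86 from the cortex (adjusted p = 0.000764). Arc was 0.79 in the hippocampus, 0.02 (SE 0.25) in the cortex and 1.02 (SE 0.31) in the striatum, with wide errors in the last 2, and its effect was not called as different from either. Gas5 had changes above 0 in all 3 regions, 0.42, 0.28 and 0.33, and passed in hippocampus and cortex (adjusted p = 0.0379 and 0.0144). Gap43 had changes below 0 in all 3, -0.26, -0.22 and -0.12, and passed in the same regions (adjusted p = 0.0429 and 0.0226). Pkib was the only called gene whose effect differed from that in the striatum, where it was 0.31 (SE 0.14), a difference of -1.25 (adjusted p = 0.000397). Its second called probe set changed by 0.07 (SE 0.11) in the striatum, and there the difference of -0.97 did not pass (adjusted p = 0.0649). In the cortex the first of these Pkib probe sets changed by -0.09 (SE 0.14).

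**Figure D5:**
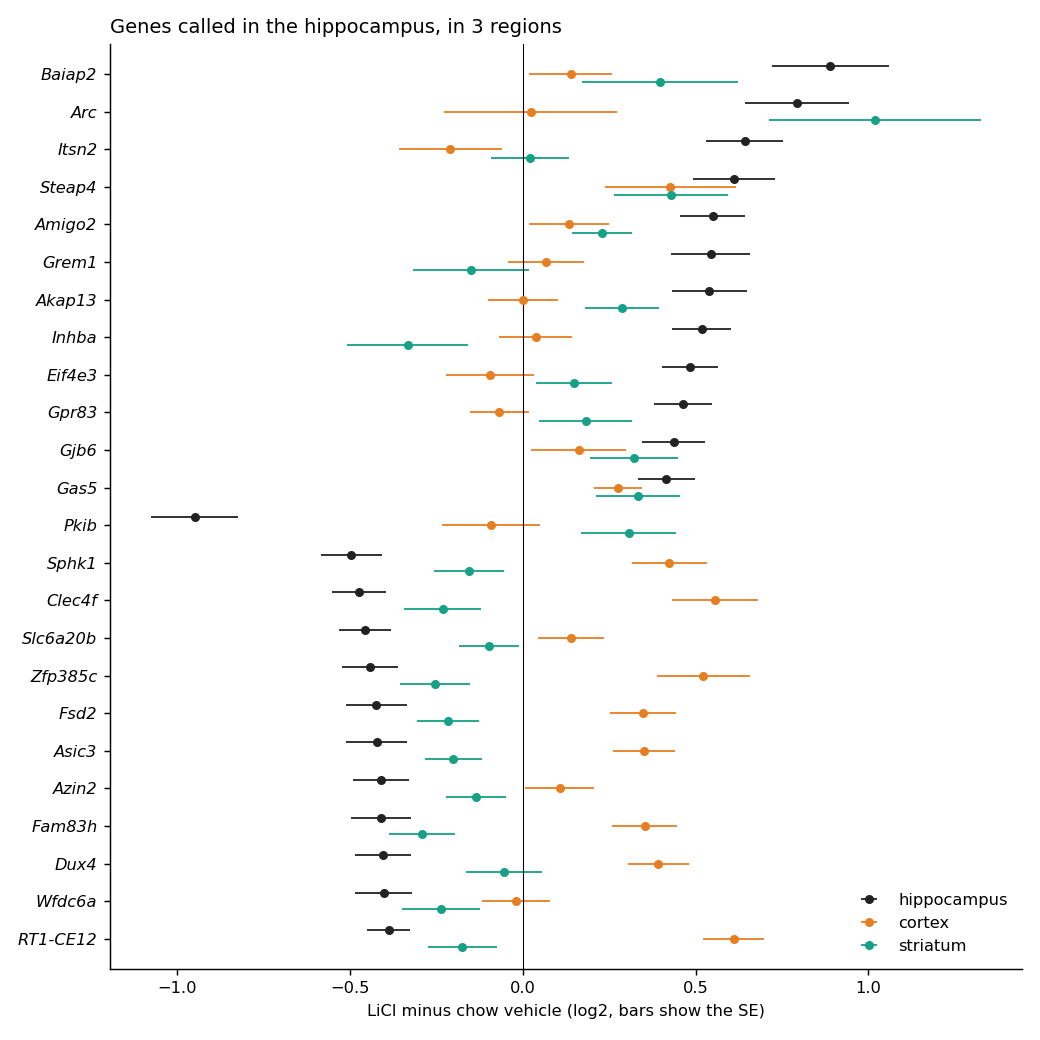
LiCl minus chow vehicle (log2, with SE) in hippocampus, cortex and striatum for the 12 largest called rises and 12 largest called falls of the hippocampus. Most of the falls lie above 0 in the cortex and below 0 in the striatum, and Pkib lies far below 0 in the hippocampus alone.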

How the data were processed

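RNA of 3 brain regions was hybridised to 60 Affymetrix rat arrays, 5 in each of 12 groups. Per the submitters' processing notes, the authors normalized the arrays by RMA in R 2.7.2, and the values they deposited are intensities of 31099 probe sets on a linear scale, with array medians of 93.5 to 101. After 57 control probe sets were left out, log2 of the intensities was taken, with no pseudocount, filter or further normalization. Depth has no counterpart on arrays, where the number of arrays limits the precision. No 2 arrays held identical values, and 0 columns were left unused.

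The 20 hippocampus arrays were fitted with group means in limma 3.58.1 (R 4.3.3), with an intensity trend and 16 residual degrees of freedom, and p-values were adjusted by Benjamini-Hochberg over 31042 probe sets. All adjusted p-values and SEs come from this fit, except that cortex and striatum were fitted alone and differences between regions came from a fit of all 60 arrays with the R number of the descriptions, read as an animal number, as a random block (correlation 0.133). In the chow groups these numbers are shifted in the hippocampus against cortex and striatum, and the sources do not say if the regions then came from different rats. Without the block the difference was called for 4791 probe sets against the cortex and 3 against the striatum. The scripts were tested on simulated data. The arrays of a group carry different R numbers, but the labels do not say in words that they are separate animals. If they are not, p-values measure only the spread between these samples, which may be technical. Array spread was compared by an exact permutation test.

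Genes were named through GEO's platform annotation, in which 20826 probe sets had 1 symbol, 436 several and 9780 none. Among called probe sets with 1 symbol, the 12 largest rises and 12 largest falls are given by array and the other called genes by their change. From 20 pathway and 11 cell type lists, called members and the 4 with the largest change could be named. Fos, Gsk3b, Cdipt and Dnajb11 fall outside this rule and were chosen after their values were seen. In lists a gene stands for its brightest probe set. The genes and lists were chosen with earlier results of these data known. Alternatives were other normalizations, covariates, filters and array sets, and leaving out each array. Promoters came from RefSeq (GRCr8).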

Additional observations from a re-analysis of the deposited data

Results flagged for a closer look

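Among the 24 called genes with the largest changes, the LiCl effect in the hippocampus differed from that in the cortex in 18 (limma, adjusted over 31042 probe sets, where 19.4% differed). The genes were chosen by their hippocampus effect, which is also part of the difference. A higher share among them thus follows in part from that choice. For the rises, the hippocampus effect minus the cortex effect was 0.86 for the endocytic scaffold Itsn2, 0.73 for the spine scaffold Baiap2, 0.58 for Eif4e3, 0.53 for the kinase anchor Akap13, 0.53 for the receptor Gpr83 and 0.43 for the adhesion molecule Amigo2. For the falls it was -1.05 for Clec4f, -1.01 for RT1-CE12, -0.97 for Zfp385c, -0.94 for Sphk1, -0.85 for Pkib, -0.81 for Dux4, -0.79 for Fsd2, -0.78 for the acid-sensing channel Asic3, -0.76 for Fam83h, -0.6 for Slc6a20b, -0.53 for Azin2 and -0.41 for Wfdc6a. The adjusted p ran from 2.67e-07 for RT1-CE12 to 0.0278 for Wfdc6a. Array spread was wider with LiCl in the hippocampus and narrower in the cortex, and with array spread as a covariate none of the 18 differences was called by limma (0 of 31042 probe sets, with 2307 at an unadjusted p under 0.05). Pkib also differed from the striatum, by -1.25 (adjusted p = 0.000397).

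A single array lay far from the other 4 of its group in 2 of 74 groups of values looked at, against 3.7 that chance gives. The transporter Slc6a20b was at 4.34 in LiCl array 3, above the 4.21 to 4.24 of the other LiCl arrays and still below every chow vehicle array. For the choroid plexus list the array mean was 6.54 in chow vehicle array 5, above 5.48 to 5.66 in the other chow vehicle arrays.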

How the results depend on the processing

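Against 73 called probe sets (42 higher, 31 lower), 0 were called with array spread as a covariate, 27 after quantile normalization, 28 with a replicate block and 127 without an intensity trend. Alternatives chosen after seeing the data gave 18 with quantile normalization and the 10 LiCl and chow vehicle arrays alone, 122 once LiCl arrays 2 and 4 and chow vehicle array 5, rich in choroid plexus transcripts, were removed, and 1 once every hippocampus array with a mean of 6 or more in that list was removed. Without single arrays the count was 5 to 256. The split was 29 higher and 43 lower with arrays centred on their medians, 54 and 7 with the 10 arrays alone, and 50 and 14 at a level of 6 or more. Of the 24 called genes with the largest changes none reversed, and 12 kept their call after quantile normalization and 14 with the block. None of the 24 kept its call with the spread covariate, or once every hippocampus array at 6 or more in choroid plexus genes was removed. The difference in array spread was 0.118 with the replicate block too (exact sign-flip p = 0.0625, its smallest possible value) and 0.106 to 0.139 without single arrays. The difference from the cortex was called for 0 probe sets with the spread covariate, 3476 at a level of 6 or more, 2423 after quantile normalization and 4517 to 6428 without single arrays. At a level of 6 or more the difference was called for 1 probe set against the striatum and 1 against lamotrigine. Without single arrays these were 1 to 8 and 0 to 167. The causes of these shifts were not tested. Replicate numbers did not pair the LiCl and chow vehicle arrays (correlations of deviations between -0.11 and 0.12), so the block is given here only.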

Other observations

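Some genes with large changes did not pass. Sncg, gamma-synuclein, changed by -2.16 (SE 0.70, adjusted p = 0.155 in limma), with 6.24 to 6.63 in LiCl arrays and 6.22 to 9.60 in chow vehicle arrays. Ttr, transthyretin of the choroid plexus, changed by 1.54 (SE 1.61, adjusted p = 0.683), with 7.30 to 14.07 in LiCl arrays and 7.07 to 13.14 in chow vehicle arrays. Chrna5, a nicotinic receptor subunit, changed by -1.03 (SE 0.32, adjusted p = 0.137), with 4.62 to 5.39 in LiCl arrays and 5.07 to 6.77 in chow vehicle arrays. In all 3 the groups overlapped. Abcg2, a drug transporter of brain capillaries, did not overlap, at 7.28 to 7.88 in LiCl arrays and 6.40 to 7.07 in chow vehicle arrays, and changed by 0.79 (SE 0.19, adjusted p = 0.0774).

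Among 14 measured secreted proteins and neuropeptides regulated by activity, Inhba was the 1 called gene (0.162% of all genes were called higher) and 10 were above 0. The tachykinin precursor Tac1 changed by -0.39 and the dynorphin precursor Pdyn by 0.33. Microglia genes were above 0 in 12 of 16, with a median change of 0.11, and with array spread as a covariate the median was -0.10. Of 15 interneuron genes 7 were above 0 and 8 below. Of 19 endothelial and pericyte genes 12 were above 0, with a median of 0.05. No gene of these last 3 lists was called, and 1, 4 and 2 of them had an unadjusted p under 0.05 in limma. That p was reached by 16.2% of all genes.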
